A study of Mus musculus with 23 samples.

Results

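The 9 mouse genes described here encode enzymes that remove R-loops or keep them from forming: Rnaseh1, Rnaseh2a, Rnaseh2b, Rnaseh2c, Aqr, Top1, Top3b, Xrn2 and Samhd1. They were chosen by function, with earlier results of these data known. They were set beside all 21887 protein-coding genes on chromosomes 1 to 19, X and Y. For each gene, every interval of 4 deposited peak lists was collected that lay over the gene span or within 10 kb of either end. One list each was available for RNA polymerase II, H3K9me3 (a histone mark of heterochromatin), R-loops and the RNA helicase DDX55. Of these, the RNA polymerase II list alone had peaks in the windows, 16 in all, at 7 of the 9 genes, where 41.6% of all protein-coding genes had at least 1.

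The 23 samples were CUT&Tag libraries, in which an antibody brings a tagging transposase to its target on chromatin, from CD4+ naive T cells of mouse spleen and pLN. The DDX55 knockout (KO) groups were DDX55, H3K9me3, RNA polymerase II and R-loop profiles without treatment and R-loop profiles with 20 U of RNase H, with 2 samples each. The wild-type (WT) groups were the same 5 with 2 samples each, plus 2 HA-tag samples and 1 IgG sample. The sources used here do not say how the knockout was made, in which cells it acts, or whether the 2 samples of a group were taken from different animals. The HA and IgG samples name none of the 4 lists, and the HA profiles carry a WT label.

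Each list merges 2 KO and 2 WT samples (4 and 4 for R-loops, with 2 RNase H-treated samples in each genotype), and it holds positions only, with no height, score or value per sample. The lists held 10898 RNA polymerase II, 16474 H3K9me3, 1473 R-loop and 215 DDX55 peaks on these chromosomes. The depth is unknown, and neither a KO against WT difference, nor an effect of RNase H, nor the spread of replicates can be given. For the same reason no test was run, and shares of genes stand beside the share over all protein-coding genes as a description. Ddx55 itself had 1 RNA polymerase II peak in its window, which cannot check the knockout because the list pools both genotypes. Among 9 CD4 naive T cell markers, 8 had an RNA polymerase II peak in the same kind of window, against 41.6% of all genes. The counts were 1 of 5 for B cells (Cd79a) and 1 of 5 for CD8 T and NK cells (Prf1). For myeloid cells it was 2 of 5 (Cd68 and Mpo), close to the share over all genes. Within 1 kb of a listed start, the counts were 4 of 6, 0 of 2, 0 of 4 and 1 of 4 in this order, against 30.9%. The windows of Cd3d and Cd3g overlap and both had a widest peak of 844 bp, so 1 peak may count for both. The cells were profiled in bulk, so a strong signal in few cells and a weak one in many cannot be told apart.

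An R-loop forms when a transcript anneals back to its template behind the polymerase and leaves the non-template strand single. Cells deal with such hybrids in several ways: RNase H enzymes cut the RNA strand, helicases unwind the hybrid, topoisomerases relax the negative supercoils that favour it, and 5′ to 3′ exonucleases degrade the transcript downstream of the poly(A) site. In humans, inherited loss of RNase H2 subunits or of SAMHD1 causes Aicardi-Goutières syndrome, an interferon-driven disease, and unresolved R-loops are a known source of DNA breaks in dividing cells. RNase H is also the reagent that the R-loop control samples of the study received.

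The promoter sequences of 4 genes are shown because they span the range of what was found at gene starts: Xrn2 had the widest RNA polymerase II peak at its start, Rnaseh2c the narrowest, and Aqr and Rnaseh2a had none. RefSeq (GRCm38.p6, the coordinates of mm10) gave a promoter window for 7 of the 9 genes, with Rnaseh1 and Rnaseh2b named only. Each sequence runs 5′ to 3′ along the gene's strand over the 250 bases before the listed start and the first 30 bases from it. Capitals mark matches to any of 8 short motifs, which are spelled out with the promoter results.
Xrn2 (chr2:147012749-147013028, plus strand): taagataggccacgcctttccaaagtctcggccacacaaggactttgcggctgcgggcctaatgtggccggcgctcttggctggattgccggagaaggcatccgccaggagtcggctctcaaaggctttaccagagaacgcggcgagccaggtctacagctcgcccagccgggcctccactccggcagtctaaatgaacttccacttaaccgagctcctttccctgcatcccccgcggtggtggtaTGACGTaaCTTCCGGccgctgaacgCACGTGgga
Rnaseh2c (chr19:5601623-5601902, plus strand): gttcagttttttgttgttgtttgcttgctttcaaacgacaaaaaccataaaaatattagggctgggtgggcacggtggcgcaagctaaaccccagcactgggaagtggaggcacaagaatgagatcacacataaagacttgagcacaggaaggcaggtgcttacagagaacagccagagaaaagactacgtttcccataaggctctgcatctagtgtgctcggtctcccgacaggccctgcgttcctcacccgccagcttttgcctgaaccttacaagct
Aqr (chr2:114175310-114175589, minus strand): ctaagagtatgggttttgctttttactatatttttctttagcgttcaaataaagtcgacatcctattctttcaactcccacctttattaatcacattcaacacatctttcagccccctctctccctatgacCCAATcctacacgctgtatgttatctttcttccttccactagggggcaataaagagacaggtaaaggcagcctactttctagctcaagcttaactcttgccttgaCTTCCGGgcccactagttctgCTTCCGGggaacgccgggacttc
Rnaseh2a (chr8:84966047-84966326, minus strand): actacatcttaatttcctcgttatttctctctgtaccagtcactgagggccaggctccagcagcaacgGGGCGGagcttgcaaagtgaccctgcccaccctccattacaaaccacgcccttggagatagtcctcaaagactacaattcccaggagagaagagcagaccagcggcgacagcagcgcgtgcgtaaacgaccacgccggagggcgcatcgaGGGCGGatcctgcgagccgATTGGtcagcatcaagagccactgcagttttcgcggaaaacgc

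Of the 4 RNase H genes, 1 (Rnaseh2c) had an RNA polymerase II peak over its own span, where 32.2% of all protein-coding genes had one. Rnaseh1 encodes RNase H1, a single-subunit enzyme that degrades the RNA of long hybrids in the nucleus and in mitochondria. Its span (chromosome 12, 28649601 to 28659592, 9.992 kb) and the 10 kb on each side held 0 peaks of all 4 lists. The nearest RNA polymerase II peak, 999 bp wide, lay 13287 bp away at the start of Rps7, a ribosomal protein gene, just outside the window.

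RNase H2 is built from a catalytic subunit, encoded by Rnaseh2a, and the accessory subunits encoded by Rnaseh2b and Rnaseh2c, and it also removes single ribonucleotides from DNA. Rnaseh2a (chromosome 8, 84956610 to 84969598, minus strand) had no peak over its span, which includes its listed start at 84966076. Its window held 1 peak, of 3084 bp, which began 6310 bp beyond the span and lay over the AP-1 factor gene Junb. It was wider than 99.9% of the RNA polymerase II list. A further peak, 1291 bp wide and 15810 bp away, lay outside the window, and the gene nearest to it was Hook2. Rnaseh2b (chromosome 14, 62332068 to 62372996, 40.9 kb) had no peak of any list in its window, and the nearest RNA polymerase II peak was 387 kb away, at the start of Ints6, an Integrator complex gene.

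Of the RNase H genes with a listed start, Rnaseh2a and Rnaseh2c, the one with a peak within 1 kb of it was Rnaseh2c. The gene is short (chromosome 19, 5601873 to 5602959, 1087 bp, plus strand), and a 454 bp peak at 5601892 to 5602345 ran from 19 to 472 bp after the listed start. That width was above 18.1% of the 4977 RNA polymerase II peaks at a listed start of any protein-coding gene, whose median was 761 bp. Another 2 peaks in its window, of 397 and 338 bp, lay 6646 and 7077 bp beyond the span and within 110 bp of a listed start of Kat5, which encodes the acetyltransferase TIP60 and is transcribed towards Rnaseh2c. The catalytic subunit gene, by contrast, had no peak within 1 kb of the start printed above.

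**Figure D1:**
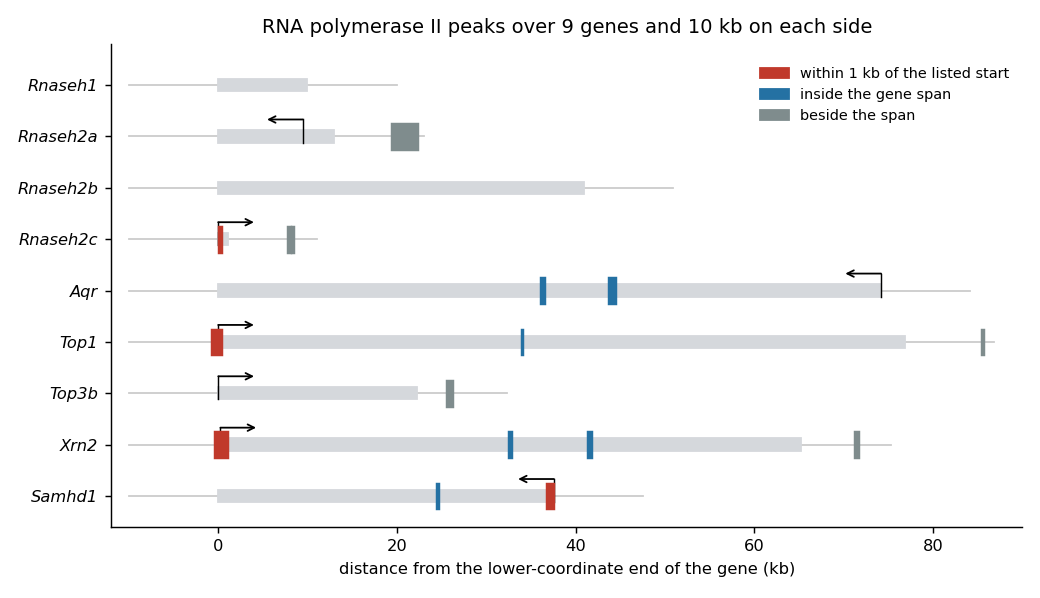
Map of the 9 genes, each from the end with the lower coordinate (0 on the horizontal axis, in kb), with grey bars for spans, thin lines for the 10 kb on each side, arrows for listed starts and direction, and coloured boxes for RNA polymerase II peaks (red within 1 kb of the listed start, blue inside the span, grey beside it). Peaks lie within 1 kb of the listed starts of Rnaseh2c, Top1, Xrn2 and Samhd1. Aqr has 2 far inside, and Rnaseh1 and Rnaseh2b have none.

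Aqr encodes Aquarius, an RNA helicase of the spliceosome, and is neither a nuclease nor a topoisomerase. It carried 2 RNA polymerase II peaks deep inside its 74.2 kb span (chromosome 2, 114101161 to 114175339, minus strand) and none within 1 kb of its start. The wider, 898 bp at 114144808 to 114145705, was centred 30.1 kb after the start, and the other, 571 bp at 114137119 to 114137689, was centred 37.9 kb after it. A peak over the span with none at a listed start was seen in 683 of 17492 protein-coding genes with a listed start (3.90%). That share was taken over genes of any length and was not split by length. The gene table holds no exons, so whether these peaks lie in exons or introns was not analysed here.

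Of the topoisomerase genes, Top1 had a wide peak on its start and Top3b had none. Top1 encodes the enzyme that nicks one DNA strand to relax supercoils around the transcribing polymerase, and spans 76.9 kb (chromosome 2, 160645897 to 160722764, plus strand). Its start lay under a 1279 bp peak at 160645090 to 160646368, from 807 bp before to 471 bp after the start, which was wider than 87.7% of all start peaks. The centre of this peak lay 168 bp before the start, whereas 62.8% of start peaks had their centre after the start (median 77 bp after). A 279 bp peak, the narrowest of the 16, lay 34.0 kb after the start inside Top1. A 299 bp peak 8484 bp beyond the far end of the gene lay at the start of Plcg1, which encodes the phospholipase C gamma 1 of T cell receptor signalling.

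Top3b encodes a topoisomerase that acts on RNA as well as single-stranded DNA, together with its partner TDRD3. The gene (chromosome 16, 16870722 to 16892986, plus strand) had no RNA polymerase II peak over its 22.3 kb. The single peak of its window, 819 bp wide, began 3245 bp beyond the span and was centred 171 bp from the start of Ppm1f, a protein phosphatase gene. Tdrd3, named here after its values were seen, had 1 peak of 663 bp at its start.

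Xrn2 had the most RNA polymerase II peaks of the 9 genes. It encodes the nuclear exonuclease that degrades the downstream transcript after poly(A) cleavage and helps release the polymerase. Its window (span at chromosome 2, 147012755 to 147078000, plus strand, 65.2 kb) held 4 peaks, a number reached by 2.20% of all protein-coding genes of any length. The start peak, 1563 bp at 147012283 to 147013845, covered the stretch from 716 bp before to 846 bp after the start, and thus the whole Xrn2 sequence printed above. It was wider than 95.3% of all start peaks. A pair of narrower peaks, 388 and 566 bp wide, lay 32.4 and 41.3 kb after the start. The last, of 523 bp, lay 5942 bp beyond the far end, nearest to the homeobox gene Nkx2-4, and was centred 1142 bp from its start.

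Samhd1 encodes a deoxynucleotide triphosphohydrolase that restricts retroviruses in resting cells, and the human protein has also been linked to R-loop removal where transcription meets replication. The gene (chromosome 2, 157097534 to 157135096, minus strand, 37.6 kb) had a start peak of 939 bp at 157134188 to 157135126. This peak reached from 30 bp before to 908 bp after the start, so nearly all of it lay in the transcribed part, and it was wider than 66.4% of start peaks. A 355 bp peak lay inside the gene, 13.0 kb after the start. No peak lay beside the gene within 10 kb.

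**Figure D2:**
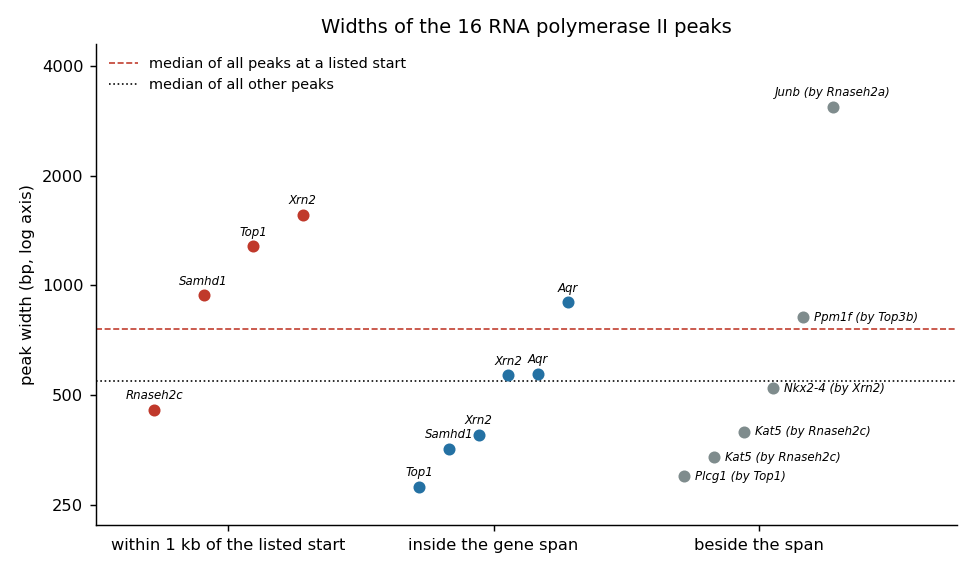
Width of each of the 16 RNA polymerase II peaks (bp, log axis) by position, with 1 point per peak named by its gene or, beside the span, by the neighbour with the nearest start. The start peaks of Xrn2 (1563 bp), Top1 (1279 bp) and Samhd1 (939 bp) are above the dashed median of all start peaks (761 bp), Rnaseh2c (454 bp) is below it, and the widest peak of all (3084 bp) belongs to Junb.

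Over the group, the peaks fell into 3 kinds: 4 at listed starts, 6 inside the spans away from the start, and 6 beside the spans. The 4 start peaks were 454 to 1563 bp wide. The 6 inside peaks were 279 to 898 bp, against a median of 548 bp for the 5921 RNA polymerase II peaks of the list that lay at no listed start. All 6 peaks beside the spans had the listed start of another gene as their nearest start: Junb, Kat5 (2 peaks), Plcg1, Ppm1f and Nkx2-4. A member had the start nearest to the peak centre for 9 of the 16 peaks. The other 7 were these 6 and the 566 bp peak inside Xrn2, whose nearest start was that of Nkx2-4. With the spans alone the count was 10 peaks at 5 genes, and with only the wider 50% of the list (638 bp or more) it was 6 peaks at 6 genes, of which 4 had a member's start as the nearest.

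A larger share of the 9 genes than of all protein-coding genes had RNA polymerase II peaks, a difference for which no test was made. Of the 9 genes, 7 (77.8%) had at least 1 peak in the window, against 41.6% of all 21887 genes. At least 2 peaks were present at 5 genes (Rnaseh2c, Aqr, Top1, Xrn2 and Samhd1), against 16.1% of all genes. At least 3 were present at Rnaseh2c, Top1 and Xrn2, against 5.61%. These counts include peaks at or near neighbouring genes. Over the spans alone, Rnaseh2c had 1 peak, Top1 had 2 and Xrn2 had 3. No share of all genes was computed for 2 or 3 peaks over the span alone. With at least 1 peak over the span alone, the count was 5 of 9, against 32.2%. Within 1 kb of a listed start it was 4 of the 7 genes with a listed start, against 30.9% of 17492. The remaining 3 of those 7 were Aqr, with peaks inside only, and Rnaseh2a and Top3b, with peaks beside the span only, a pattern seen in 7.75% of genes with a listed start.

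Longer genes have longer windows, and the 9 genes were longer (median 37.6 kb) than protein-coding genes in general (median 17.2 kb). The share of all genes with a peak in the window was 31.0% for genes of up to 10 kb (1 of the 2 members of this length, Rnaseh2c, had one), 48.4% for genes longer than 10 and up to 40 kb (3 of 3 members) and 51.0% for genes longer than 40 and up to 80 kb (3 of 4 members, without Rnaseh2b). These length classes were set after the lengths had been seen, and the part of gene length in the members' share was not tested. The shares for higher numbers of peaks per gene were not split by length.

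**Figure D3:**
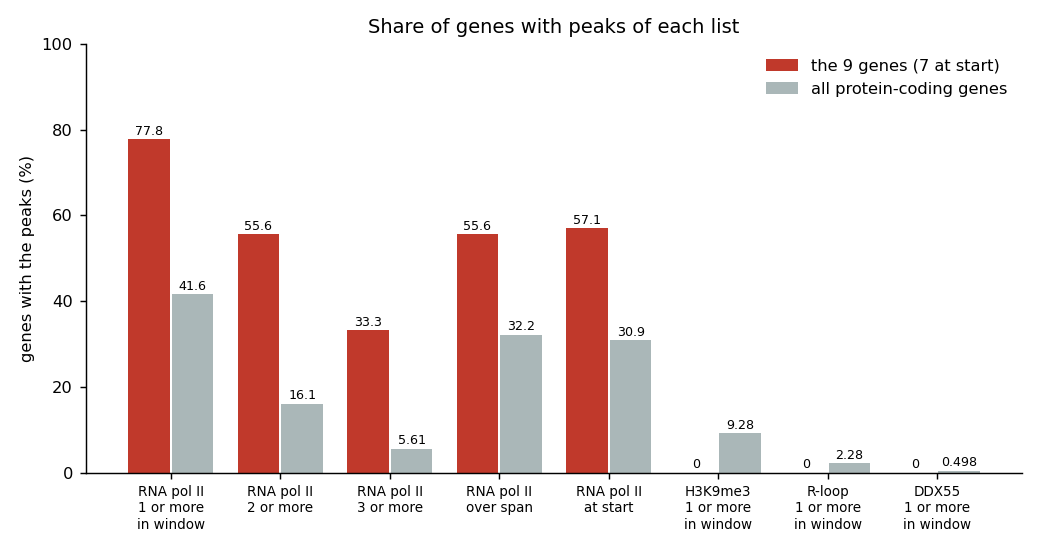
Percentage of the 9 genes (red, 7 genes for the start) and of all protein-coding genes (grey) with peaks of each list. The window is the gene span with 10 kb on each side, and it can hold peaks of neighbouring genes. The red bars for RNA polymerase II stand above the grey ones, from 77.8% against 41.6% for at least 1 peak to 33.3% against 5.61% for at least 3, and the red bars for the other 3 lists are at 0.

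None of the 9 genes had an H3K9me3, R-loop or DDX55 peak in its window. At 95% confidence, 0 of 9 genes drawn at random would allow a share of up to about 33.3%, approximated as 3 of 9. That bound covers counting error only. The 9 genes were chosen by function and not at random, so it estimates no share for a wider set. The shares over all protein-coding genes were 9.28% for H3K9me3, 2.28% for R-loops and 0.498% for DDX55, so that a count of 0 is near what the background gives. The 7 genes with RNA polymerase II peaks thus shared the pattern of that list alone with 8527 genes (39.0%), and Rnaseh1 and Rnaseh2b had no peak of any list, like 10934 of all 21887 genes. The R-loop list is also named by the RNase H-treated samples, so its peaks are not known to depend on hybrids, and at an unknown depth a gene without one is a gene without a call.

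The nearest peaks of these 3 lists lay far from most of the genes. H3K9me3 peaks were 158 kb (Rnaseh1) to 2091 kb (Rnaseh2b) away, with a median of 285 kb, against 318 kb over all genes. The nearest R-loop peak lay 177 kb from Xrn2 and had a width of 220 bp, and the gene nearest to this peak was Kiz, a centrosomal protein gene. The other 8 genes were 506 kb (Rnaseh2b) to 5098 kb (Top1) from an R-loop peak, and the median of the 9 was 1884 kb, against 1148 kb over all genes. For DDX55 the distances ran from 58.3 kb for Top1, to a 187 bp peak whose nearest gene span was that of Zhx3, up to 33.7 Mb for Rnaseh2c. Their median was 5.73 Mb, against 8.84 Mb over all genes.

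**Figure D4:**
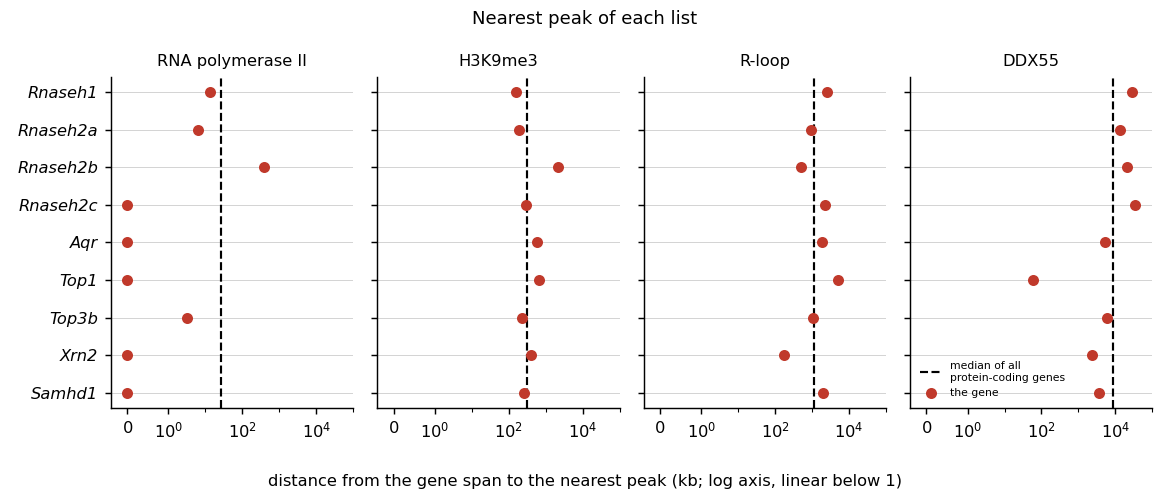
Distance in kb from each gene span to the nearest peak of each list (log axis, linear below 1 kb), with 1 point per gene and a dashed line at the median over all protein-coding genes. For RNA polymerase II, 5 genes are at 0 and Rnaseh2b is at 387 kb; Xrn2 is the gene nearest to an R-loop peak (177 kb) and Top1 the one nearest to a DDX55 peak (58.3 kb).

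The promoter windows of the genes with start peaks were mostly GC-rich, with Rnaseh2c as the exception. Over the full 300-base windows (250 before and 50 from the start), GC content was 65.7% in Samhd1, 64.0% in Top1, 62.0% in Xrn2 and 49.7% in Rnaseh2c. Among the genes without a start peak it was 58.3% in Rnaseh2a and 45.7% in both Aqr and Top3b. Over all 21263 windows of protein-coding genes, the median was 62.0% for the 6330 windows with an RNA polymerase II peak within 1 kb of the start and 53.3% for the 14933 without one. CpG dinucleotides, which are dense in CpG island promoters, numbered 29 in Samhd1 and Top1, 25 in Xrn2 and 9 in Rnaseh2c. They numbered 23 in Rnaseh2a, 11 in Top3b and 9 in Aqr, against a median of 23 in windows with a peak and 7 in windows without. Rnaseh2a, with no start peak, thus had as many CpGs as the median window with a peak. The Aqr window stood out for strand asymmetry: its GC skew, the excess of G over C divided by their sum, was -0.24, lower than in all but 4.08% of windows.

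**Figure D5:**
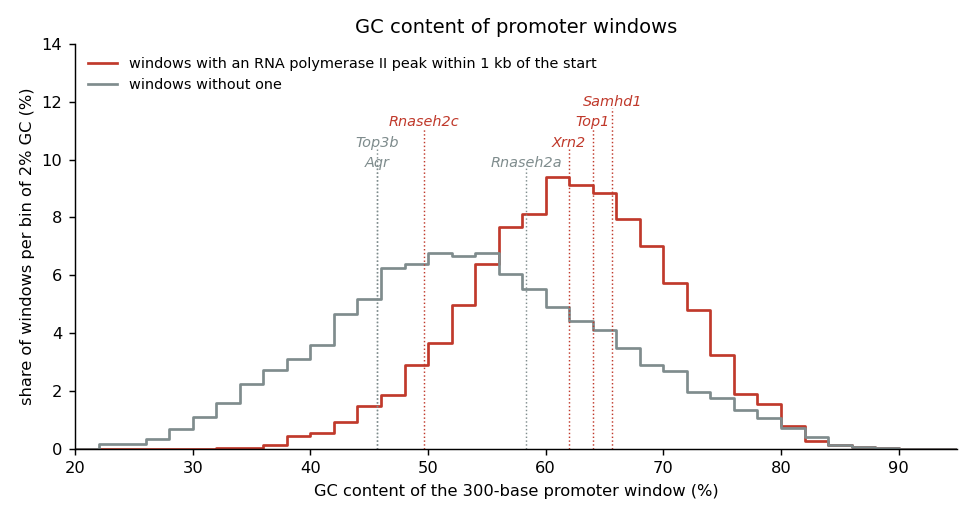
GC content (%) of 300-base promoter windows of protein-coding genes as the share of windows per bin of 2% GC, in red for windows with an RNA polymerase II peak within 1 kb of the start and in grey for those without, with the 7 genes marked in the colour of their own state. Samhd1 (65.7%), Top1 (64.0%) and Xrn2 (62.0%) lie near the top of the red curve, and Rnaseh2c (49.7%) lies on its low side.

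The 8 motifs were searched as exact letters on both strands of the 300-base windows. The GC box GGGCGG was found in 3 of 7 genes (3 matches in Top1, 2 in Rnaseh2a and 1 in Samhd1), against 46.2% of all windows. The ETS core CCGGAAG was found in Aqr (2 matches), Top3b and Xrn2, against 11.6%, and CCAAT in Aqr, Rnaseh2a and Top3b, against 38.2%. The E box CACGTG and the cyclic AMP element stretch TGACGT were each found in Top1 and Xrn2, against 7.84% and 8.49%. The NRF1 core TGCGCA was found in Samhd1 (2 matches), against 9.74%. The TATA box TATAAA, held by 12.6% of all windows, and the YY1 core GATGGCG, held by 4.29%, were in none of the 7 windows. Rnaseh2c, the gene with the narrowest start peak, held none of the 8.

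In the sequences printed above the matches did not overlap each other. In Xrn2 all 3 lay close to the start: TGACGT from 4 bases before it, the reverse complement of the ETS core from base 5 and CACGTG from base 22, counting the start as base 1. In Aqr the ETS core, also as its reverse complement, began 14 bases before the start and again at base 8, and CCAAT 119 bases before. In Rnaseh2a the GC box began 182 and 32 bases before the start, and a reversed CCAAT 13 bases before. A match describes the letters in the window and is not a measured binding site.

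Other genes that process R-loops were read from a separate list of 40, which holds helicases, Fanconi anaemia and BRCA proteins, splicing and export factors and nucleases. RNA polymerase II peaks lay in the window of 36 of 40, against 7 of 9 for the genes above and 41.6% of all genes. Over the span alone, 30 of 40 had one, against 32.2% of all genes. Within 1 kb of a listed start, 27 of the 34 with a listed start had one, against 30.9% of all genes. Among them were the export adaptor gene Alyref with a peak of 661 bp, Bard1 (1113 bp) and Brca1 (1141 bp), which encode the partners of a ubiquitin ligase in DNA repair, the helicase genes Blm (1177 bp) and Ddx19a (834 bp), and the checkpoint gene Bub3 (498 bp). The 4 without a peak in the window were Brca2, the helicase gene Ddx1, the flap endonuclease gene Fen1 and the export factor gene Thoc5. The shares for these 40 genes were not split by gene length.

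H3K9me3 peaks lay in the window of 1 of these 40 genes, the RecQ helicase gene Wrn, named after its values were seen, against 9.28% of all genes. DDX55 peaks lay in the window of 0 of the 40, against 0.498% of all genes.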

How the data were processed

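The members and gene lists were chosen with earlier results of these data known. The values deposited by the authors are genomic coordinates in bp, 1 merged peak list per target, with no count, score or signal. The submitters' processing notes name the build mm10, MACS3 3.0.0b1, Bowtie2 2.5.0, fastp 0.12.4, ChIPseeker 1.30.3 and SAMtools 1.15.1. Peak thresholds and how samples were merged are not given in the sources used here.

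Starts were taken as BED positions, counted from 0, and are printed counted from 1. Gene spans came from a RefSeq table of GRCm38.p6, and starts and strands from a RefSeq promoter table that covered 17492 of 21887 protein-coding genes. A peak counted when it shared at least 1 bp with the span extended by 10 kb, or with the 1000 bp on each side of a start. Overlaps were computed in Python 3.11.15 (pandas 2.3.3, numpy 2.4.6), and counts per gene were checked with bedtools 2.31.1 and tested on simulated data. The named genes were all 9 members, neighbours with the start or span nearest to a peak, and, of the other R-loop genes, the first 6 by name with a peak and all without one where 5 or fewer. Genes at peaks outside the windows were named after their values were seen. The R-loop list at the other R-loop genes is not reported here. The sequences printed were those of the widest and narrowest start peaks and the first 2 members by name with a start and no peak there. Alternatives were windows of 0, 5 and 20 kb, other overlap rules, other widths around the start, and the wider 50% of each list.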

Additional observations from a re-analysis of the deposited data

How the results depend on the processing

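Of 44 alternatives to 10 counts, 15 could not move their count, since they are stricter than a rule that already gave 0. Of the other 29, 26 stayed within 1.5 times the value reported. The exceptions concerned numbers of peaks: 10 RNA polymerase II peaks in place of 16 with the gene spans alone and 6 with the wider 50% of the list, and 4 in place of 9 nearest to a member with that part of the list. The first follows from the smaller windows and the others from fewer peaks. Genes with such a peak numbered 5 to 8 of 9 over windows of 0 to 20 kb, with Rnaseh1 gained at 20 kb, and 3 to 4 at the start. For H3K9me3, R-loop and DDX55 the 20 kb window was the only alternative that could add a gene, and the count there was 0 for each. Of these alternatives, 2 were chosen after seeing the data: promoter windows of 250 bases, with a GC box in 3 genes as before, and 200 bp around the starts of the other R-loop genes (26 in place of 27).

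Leaving out samples was not possible, since the lists hold no value per sample. No paired analysis was possible because each list merges all samples of its target. Depth is unknown, so a missing peak is a missing call.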
